A study of Mus musculus with 32 samples.

Results

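Total expression in the embryonic mouse brain was compared with that in the adult prefrontal cortex, using the 6 pools of F1 hybrid mice, of 10 F1 brain pools in the study, that represent these tissues. Of the study's 32 libraries, which include the parental strains and a further adult region, 16 belong to these pools: 4 technical replicates for each of 2 embryonic pools and 2 for each of 4 cortical pools, summed into 1 count per pool by the authors. The embryonic pools are whole brain at embryonic day 15 (E15), of RNA from 4 to 5 individuals each, whose sex the labels do not give. The cortical pools are medial prefrontal cortex (PFC) of mice aged 5 weeks, of RNA from 8 to 10 individuals each, with males and females pooled separately. Both tissues were taken from reciprocal crosses of C57BL/6J, the standard laboratory strain, and CAST/EiJ, a wild-derived strain: F1i animals had a CAST/EiJ mother and a C57BL/6J father, and F1r animals the reverse. All animals are hybrids of these strains, none was treated, and no group carried an engineered allele. The study itself was built to measure each parent's allele. Here the reads of both alleles were added together, over the strain SNPs listed in both tissues, to give 1 total for each gene and pool.

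At embryonic day 15 the mouse brain still holds dividing neural progenitors lining the ventricles, along with newborn neurons that migrate outward and extend axons. By 5 weeks, cortical neurons have matured: they form synapses, express adult receptor and channel subunits, and sit among myelinating oligodendrocytes, mature astrocytes and microglia. The samples differ in region as well as in age, because a whole brain includes hindbrain, midbrain, ventral forebrain and choroid plexus that a dissected cortex lacks. How much of the meninges each tissue carried was not measured. Age, region and any step at which the tissues were handled separately cannot be told apart in this design. In pooled tissue, fewer cells of a type and less RNA per cell cannot be told apart either. With 1 pool for each tissue, cross and sex, the p-values measure the spread among pools.

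The tested genes were 12076 autosomal genes out of 12668 with a shared SNP, read at a median of 6 SNPs each. Their counts summed to 9878691 and 10235141 in the embryonic pools and to between 4685507 and 7047168 in the cortical pools. Values below are CPM, the counts divided by the TMM-scaled library size. A SNP-based level depends on how many SNPs a gene has, so levels are compared between pools and not between genes. Values of single pools are given with F1i before F1r for the embryo, and in the order F1i male, F1r male, F1i female and F1r female for the cortex. Differences are log2 PFC minus E15, so that negative values are higher in the embryo. Adjusted p-values are from edgeR's quasi-likelihood test with cross as a covariate and Benjamini-Hochberg adjustment over all 12076 genes, and a gene was called at an adjusted p under 0.05. The pools of 1 tissue differed from each other by a median of 1.32-fold between the embryonic crosses, 1.21-fold between the male cortical pools and 1.17-fold between the female ones, over 9932 genes with a mean of at least 50 reads. A difference of more than 4-fold separated the embryonic pools for 49 of these genes.

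Differences between the tissues reached most genes. Of the 12076 genes, 3189 (26.4%) were called higher in PFC and 3316 (27.5%) higher in embryonic brain, together 6505 (53.9%). A difference of at least 2-fold was called for 4279 genes (35.4%), 2164 (17.9%) higher in PFC and 2115 (17.5%) higher in the embryo. The pools of the tissues did not overlap for 7303 genes (60.5%). The balance between directions depends on the TMM scaling: with library size alone, 2157 genes were called higher in PFC and 4977 higher in the embryo, and the median over all genes moved from -0.04 to -0.40. The embryonic table alone listed 3987 autosomal genes, beside 17914 gene symbols that it holds on all chromosomes. The PFC table alone listed 327, beside 14124 symbols. These shares and counts are the background against which the gene groups below are read.

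The gene with the smallest adjusted p-value was Cd24a, which encodes a glycosylated surface protein of newborn neurons (chr10:43298975-43304068 in mm9). Its level was 1814 and 2151 CPM in the embryonic pools and 22.4, 33.6, 21.4 and 29.4 CPM in the cortical pools, 75.2-fold (log2 difference -6.23 ± 0.19 SE, adjusted p = 8.95e-09) higher in the embryo. Reads of Cd24a could be shared with near-identical retrocopies. Among the 12 largest differences toward the embryo, picked from called genes whose pools do not overlap between tissues, were 3 further genes of young neurons. The transcription factor Sox11 was at 594 and 328 CPM in the embryo and 13.5 to 17.6 CPM in PFC. The beta tubulin Tubb2b, which has close paralogs, was at 638 and 566 against 14.4 to 33.3 CPM, and the collapsin response mediator Dpysl3 at 926 and 678 against 27.5 to 50.7 CPM. These 3 were higher in the embryo by 28.4-fold, 24.6-fold and 20.8-fold.

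The other genes of that set do varied work. Igf2, the growth factor gene expressed from the paternal allele in most fetal tissues, was at 203 and 283 CPM in the embryo and 4.86, 7.09, 6.57 and 6.36 CPM in PFC, 38.4-fold (log2 difference -5.26 ± 0.20 SE, adjusted p = 3.84e-08) higher in the embryo. Tcf7l2, a transcription factor of Wnt signalling that marks the developing thalamus, was at 67 and 49.1 against 1.16 to 1.6 CPM. Tead2, a partner of the growth regulator Yap in progenitors, was at 107 and 41.3 against 1.83 to 3.52 CPM. Vash2, an enzyme that removes the terminal tyrosine of tubulin, was at 232 and 109 against 1.53 to 6.94 CPM, and the ubiquitin ligase gene Trim67 at 64.6 and 23.1 against 0.459 to 1.31 CPM. The embryonic pools of Vash2, Trim67 and Tead2 differed from each other by more than 2-fold, and each lay far above every cortical pool. Sncaip (synphilin), AW551984 and BC134356 completed the set, at log2 differences of -4.85 ± 0.27, -4.90 ± 0.21 and -4.66 ± 0.19 SE.

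In the opposite direction, the largest difference was that of Itpka (chr2:119568073-119576999 in mm9), a kinase of inositol trisphosphate that also bundles actin in dendritic spines. It was at 0.436 and 0.243 CPM in the embryo and 106, 109, 85.9 and 109 CPM in PFC, 290.2-fold (log2 difference 8.18 ± 0.36 SE, adjusted p = 4.66e-08) higher in PFC, at a single SNP. The embryonic values rest on 5 and 3 reads. Camk2a, the alpha subunit of the calcium/calmodulin kinase of the postsynaptic density, was at 86.9 and 74.1 CPM in the embryo and 6742, 6032, 7174 and 7347 CPM in PFC, 84.9-fold (log2 difference 6.41 ± 0.25 SE, adjusted p = 3.84e-08) higher in PFC. Ddn, which encodes dendrin, was at 13.5 and 14.9 against 1503 to 1672 CPM, and Nrgn, the calmodulin-binding protein neurogranin, at 58.5 and 30.4 against 2347 to 3814 CPM. The set toward PFC was likewise picked from called genes whose pools do not overlap.

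The other genes of the PFC set have varied roles. The activity-regulated genes Egr3 and Arc were at 1.4 and 1.46 and 4.36 and 2.67 CPM in the embryo and 102 to 179.7 and 167 to 292 CPM in PFC. Adra1d, an alpha-1 adrenergic receptor, was at 0.349 and 0.162 against 32 to 39.3 CPM, at a single SNP with 4 and 2 embryonic reads. Slc17a7, the vesicular glutamate transporter VGLUT1, was at 46 and 38.7 against 2545 to 3617 CPM. Mbp, myelin basic protein, was at 26.9 and 16.6 CPM in the embryo and 1653, 791, 1064 and 2826 CPM in PFC, 72.3-fold (log2 difference 6.18 ± 0.58 SE, adjusted p = 6.31e-06) higher in PFC. Its cortical pools differed among themselves more than those of the neuronal genes did, with the F1r female pool highest and the F1r male pool lowest. Phyhip, Gpd1 (cytosolic glycerol-3-phosphate dehydrogenase) and BC055107 had log2 differences of 5.93 ± 0.24, 5.78 ± 0.34 and 6.80 ± 0.28 SE. The plot of CPM by pool shows these genes in every pool.

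**Figure D1:**
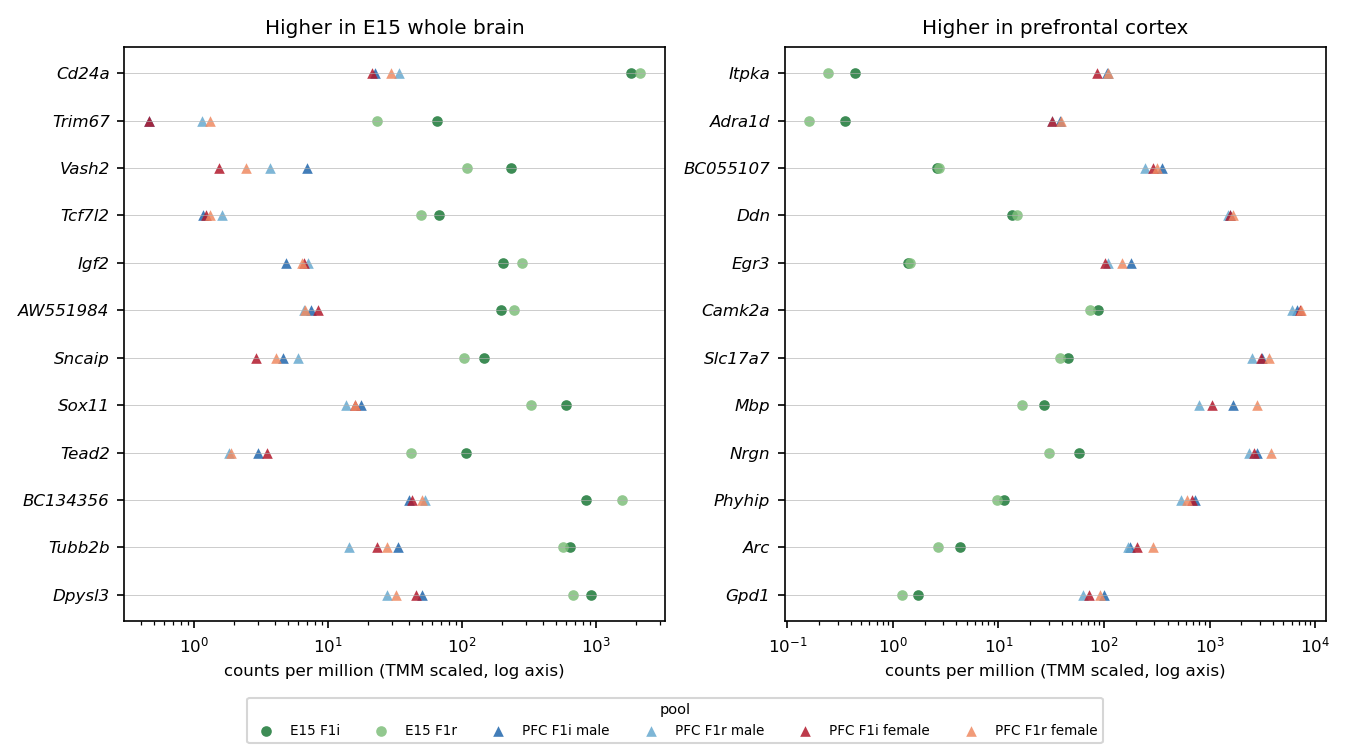
CPM (log axis) of the 12 genes with the largest difference in each direction; circles are the 2 embryonic pools and triangles the 4 prefrontal pools. The 24 genes were picked from called genes whose pools do not overlap between tissues. The Mbp triangles spread from 791 to 2826 CPM.

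Progenitor genes were mostly higher in the embryo. Of 24 tested genes of neural stem and progenitor cells, 18 were called higher in embryonic brain, 2 higher in PFC and 4 were not called, with a median log2 difference of -1.38 beside -0.04 over all genes. Nes, the intermediate filament nestin of neural stem cells, was at 113 and 74.8 CPM in the embryo and 6.71, 8.24, 8.56 and 7.3 CPM in PFC, 12-fold (log2 difference -3.58 ± 0.22 SE, adjusted p = 4.02e-07) higher in the embryo. Vim, another filament of radial glia, was at 492 and 350.0 against 48.8 to 67 CPM. The exceptions were Slc1a3, the glutamate transporter GLAST that radial glia share with adult astrocytes, and the transcription factor Lhx2. Slc1a3 was at 346 and 326 CPM in the embryo and 584, 581, 533 and 558 CPM in PFC (log2 difference 0.75 ± 0.17 SE, adjusted p = 0.00334). Its call was lost at the deepest SNP of each gene, with the female cortical pools only or with library size alone (adjusted p = 0.0643 to 0.0801). Lhx2 was higher in PFC by less than 2-fold (log2 difference 0.61 ± 0.23 SE, adjusted p = 0.0385), and its call was lost without the F1r embryonic pool, the F1i female cortical pool, the F1i male cortical pool or the F1r male cortical pool (adjusted p = 0.0538 to 0.263) and in 8 other alternatives (adjusted p = 0.0507 to 0.355), library size alone among them. Sox9, which serves in progenitors and in adult astrocytes, was not called, with 104 and 62.3 against 37.9 to 65.3 CPM, nor were Sox1, Hes5 and Emx2. A further 4 listed genes, among them the intermediate progenitor factors Eomes and Neurog2, had SNPs in the embryonic table and none in the PFC table.

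Fabp7, the brain fatty acid-binding protein of radial glia, was uneven within the embryo. It was at 4.19 CPM in the F1i pool and 107 CPM in the F1r pool, read at 2 SNPs, against 1.14 to 2.06 CPM in PFC (log2 difference -4.28 ± 0.73 SE, adjusted p = 4.60e-04). Fabp7 was no longer called without the F1r embryonic pool (adjusted p = 0.0656).

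The cell cycle genes showed the same direction. Of 39 tested genes of DNA replication and mitosis, 27 were called higher in the embryo, 25 of them at least 2-fold, 11 were not called, and the only call toward PFC was Ccne1, at a mean of 14.5 reads per pool, a call lost without the F1i embryonic pool or the F1i female cortical pool (adjusted p = 0.0597 to 0.143) and in 5 other alternatives (adjusted p = 0.057 to 0.0879), library size alone among them. Their median log2 difference was -1.88. Mcm7, a subunit of the replicative helicase, was at 108 and 86.7 CPM in the embryo and 9.48, 12.6, 11.8 and 12.7 CPM in PFC, 8.36-fold (log2 difference -3.06 ± 0.21 SE, adjusted p = 7.65e-07) higher in the embryo. Its partner subunit Mcm3 was at 30.7 and 25.8 against 2.06 to 4.63 CPM. Cdk4, the kinase that starts the cell cycle together with D-type cyclins, was at 612 and 365 against 69.9 to 96.2 CPM, and Smc4, a condensin subunit, at 15.6 and 30.3 against 0.925 to 3.43 CPM. These 4 were picked as the largest called differences of the list. Their pools did not overlap between tissues, as was so for 60.5% of all genes. The cyclin gene Ccnd1 (log2 difference 0.26 ± 0.22 SE, adjusted p = 0.35) and the clamp loader gene Rfc1 (log2 difference -0.42 ± 0.19 SE, adjusted p = 0.0887) were not called. Of 73 genes on the list, another 28 had SNPs in the embryonic table alone, as had 3987 genes beside the 17914 symbols of that table. They included the proliferation markers Mki67, with 2215 and 2012 reads in the embryonic pools, and Top2a, with 1713 and 2908.

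The promoters of cell cycle genes are known to share elements bound by factors of the dividing cell: the CCAAT box, the CHR element TTTGAA and E2F sites. They are shown here for Mcm3, Mcm7 and Cdk4, as the 250 bases upstream of the annotated start in RefSeq (GRCm38.p6), 5′ to 3′ on the gene's strand. Capitals mark every match, on either strand, to the spellings CCAAT of the box, TTTGAA of the CHR, or TTTGGCGC or TTTCCCGC of the E2F site. The Mcm3 bases are chr1:20820313-20820562, minus strand, those of Mcm7 chr5:138171884-138172133, minus strand, the upstream one of 2 listed starts, and those of Cdk4 chr10:127063285-127063534, plus strand.
Mcm3: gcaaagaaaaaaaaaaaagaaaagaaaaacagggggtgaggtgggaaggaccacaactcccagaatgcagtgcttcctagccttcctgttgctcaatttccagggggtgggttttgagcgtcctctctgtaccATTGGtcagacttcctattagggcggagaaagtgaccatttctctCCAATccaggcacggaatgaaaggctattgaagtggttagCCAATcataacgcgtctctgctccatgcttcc
Mcm7: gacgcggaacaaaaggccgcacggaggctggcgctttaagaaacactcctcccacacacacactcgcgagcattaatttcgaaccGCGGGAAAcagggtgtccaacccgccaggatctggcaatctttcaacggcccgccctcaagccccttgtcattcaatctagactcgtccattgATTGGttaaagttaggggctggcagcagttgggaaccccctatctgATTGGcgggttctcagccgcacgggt
Cdk4: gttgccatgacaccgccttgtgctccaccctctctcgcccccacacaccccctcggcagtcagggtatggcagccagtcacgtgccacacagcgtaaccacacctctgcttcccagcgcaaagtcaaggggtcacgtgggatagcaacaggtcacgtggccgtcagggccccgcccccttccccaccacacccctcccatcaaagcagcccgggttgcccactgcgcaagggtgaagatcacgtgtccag
The Mcm3 promoter held the CCAAT box alone, the Mcm7 promoter held it together with an E2F site, and the Cdk4 promoter held none of these spellings. The other listed start of Mcm7 had the CCAAT box and no match to the other spellings in its upstream bases. Over the cell cycle genes called higher in the embryo, 19 of 27 had promoters in the table, 23 in all. Of those 23, 16 (69.6%) held CCAAT, against 33.8% of the 32851 promoters in the table, and 4 (17.4%) held TTTGAA, against 16%. TTTGGCGC was in 2 (8.7%) against 0.417% and TTTCCCGC in 2 (8.7%) against 0.895%. These spellings do not overlap each other, a match is not a measured binding site, and the shares were not tested.

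Genes of newborn and migrating neurons made up one of the most lopsided groups. Of 33 tested, 25 were called higher in the embryo, 20 of them at least 2-fold, 7 were not called, and 1, the deep-layer transcription factor Tbr1, was called higher in PFC. The median log2 difference was -1.44, and their summed level was 17432 and 19222 CPM in the embryonic pools and 5444 to 5994 CPM in the cortical pools. Cd24a, Sox11, Tubb2b and Dpysl3, described above, led the group. Tbr1 was at 33.7 and 17.9 CPM in the embryo and 61.8, 53.8, 66.1 and 67.4 CPM in PFC (log2 difference 1.32 ± 0.25 SE, adjusted p = 9.08e-04). Fscn1, which encodes the actin-bundling protein fascin, was not called, with 524 and 324 against 487 to 708 CPM. Igfbpl1, a gene of early neurons, had 5890 and 6149 reads in the embryonic pools and no SNP in the PFC table.

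Regulators that characterise fetal tissue were lower in PFC. Of 12 tested genes of fetal RNA-binding and chromatin architecture proteins, 10 were called higher in the embryo and none higher in PFC, with a median log2 difference of -1.80. The proto-oncogene Mycn was at 35.8 and 57.8 CPM in the embryo and 3.93, 5.03, 4.13 and 5.43 CPM in PFC, 9.9-fold (log2 difference -3.31 ± 0.23 SE, adjusted p = 7.80e-07) higher in the embryo. The nucleosome-binding protein gene Hmgn2 was at 267 and 235 against 38.5 to 58.3 CPM, Sall3 at 24.3 and 12.6 against 2.06 to 5.35 CPM and Mycl1 (now Mycl) at 42.6 and 62 against 7.95 to 14.8 CPM. Hmga1 (log2 difference 0.18 ± 0.19 SE, adjusted p = 0.458) and Hmgn3 (log2 difference -0.09 ± 0.19 SE, adjusted p = 0.708) were the members not called. The other 6, Lin28, Igf2bp1, Igf2bp2, Hmga2, Trim71 and Myc, were listed in the embryonic table alone, Hmga2 with 240 and 303 reads.

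Subunits of chromatin complexes went both ways. Of 33 tested genes of the BAF remodelling complex, DNA methylation and Polycomb, 16 were called higher in the embryo, 5 higher in PFC and 12 were not called. Ezh2, the histone H3 lysine methyltransferase of the Polycomb repressive complex, was at 21.3 and 25.6 CPM in the embryo and 0.925, 1.37, 1.68 and 0.936 CPM in PFC, 18.4-fold (log2 difference -4.20 ± 0.32 SE, adjusted p = 1.51e-06) higher in the embryo. Its paralog Ezh1 was at 44.2 and 36.1 against 82.4, 79.4, 83.5 and 73 CPM, 1.99-fold (log2 difference 0.99 ± 0.19 SE, adjusted p = 0.00107) higher in PFC. Of other Polycomb genes, Rnf2 and Bmi1 were higher in the embryo by 7.63-fold and 2.71-fold, and Cbx6 and Cbx7 higher in PFC by 4.78-fold and 4.3-fold. Rnf2 was read at a single SNP. Within BAF, Smarce1 was 2.9-fold higher in the embryo, and the ATPase gene Smarca2 and Smarcd1 were higher in PFC, by 2.03-fold and 1.65-fold. The Smarcd1 call was lost without the F1r embryonic pool (adjusted p = 0.114) and with the female cortical pools only, with library size alone or with the parental embryonic samples added (adjusted p = 0.069 to 0.145). The Ezh1 call was lost at the deepest SNP of each gene (log2 difference 0.78, adjusted p = 0.0766).

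Among 26 tested regulators of neuronal splicing, 13 were called higher in the embryo, 3 higher in PFC and 10 were not called. Ptbp1, which represses neuronal exons in progenitors, was at 17.6 and 14.5 CPM in the embryo and 3.93 to 7.8 CPM in PFC (log2 difference -1.39 ± 0.30 SE, adjusted p = 0.00207). Ptbp2, which replaces it in young neurons, was at 109 and 160.2 against 29.2 to 46.7 CPM (log2 difference -1.83 ± 0.22 SE, adjusted p = 4.27e-05). Both were therefore higher in the embryo. The general splicing factors Hnrnpa1 and Sfrs7 (now Srsf7) and the neuronal factor Nova1 were higher there by 4.25-fold, 2.82-fold and 3.25-fold, Nova1 at a single SNP. The members higher in PFC were Mbnl2, at 15.7 and 13.5 against 46.6 to 73.5 CPM, Khdrbs3 and A2bp1 (now Rbfox1). The A2bp1 call (log2 difference 0.66 ± 0.23 SE, adjusted p = 0.0294) was lost without the F1r embryonic pool or the F1i male cortical pool (adjusted p = 0.0555 to 0.432) and with the female cortical pools only, with library size alone or with upper quartile scaling (adjusted p = 0.0515 to 0.26).

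**Figure D2:**
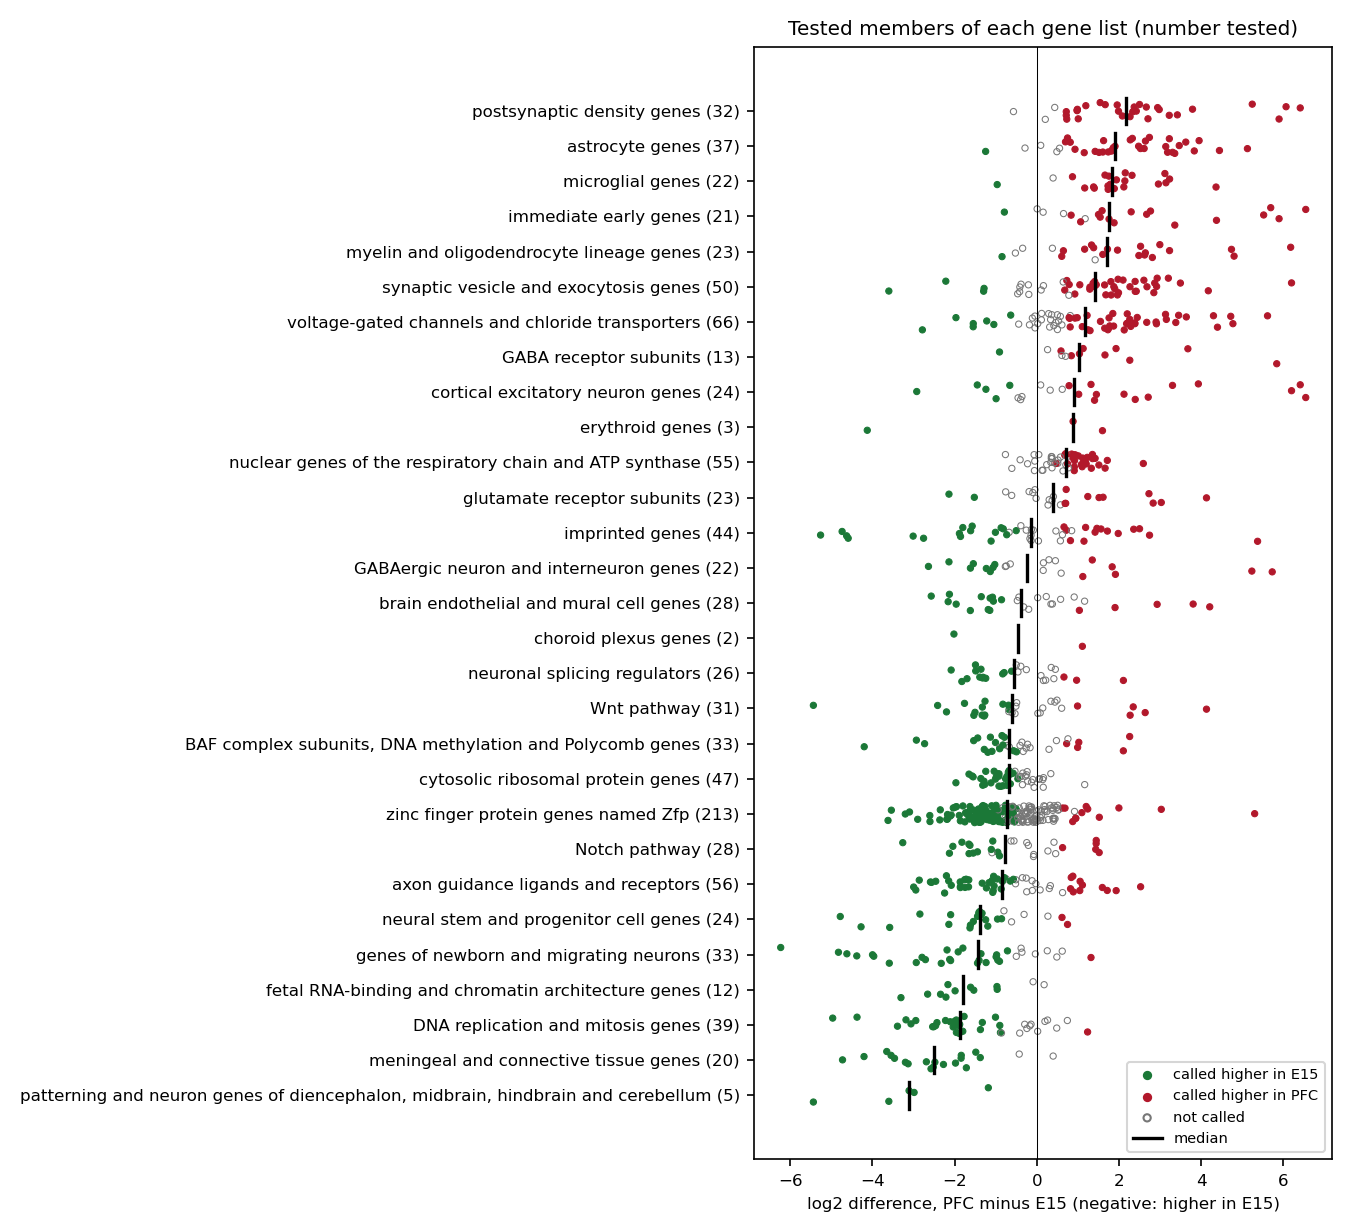
Log2 difference PFC minus E15 of every tested member of each gene list; each dot is a gene, filled where called at an adjusted p under 0.05, and the bar is the list's median. Lists of progenitors, cell division, young neurons and meninges lie left of 0, and lists of synapses, channels, mature glia and immediate early genes right of it, beside the median of -0.04 over all 12076 genes.

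Axon guidance genes, which steer growing axons as ligand and receptor pairs, were mixed. Of 56 tested, 32 were called higher in the embryo, 11 higher in PFC and 13 were not called, with a median of -0.85. The ligand Ntn1 (netrin 1) was at 56.9 and 46.8 CPM in the embryo and 5.55, 6.64, 5.96 and 10.7 CPM in PFC, 7.27-fold (log2 difference -2.86 ± 0.27 SE, adjusted p = 6.06e-06) higher in the embryo. Its attractive receptor Dcc was at 61.9 and 61.8 against 8.79 to 12.6 CPM, and of the ephrin receptors Epha3 and Epha8 were higher in the embryo by 7.99-fold and 7.7-fold. The repulsive netrin receptor Unc5a was at 37.6 and 27.5 against 99.5 to 113 CPM, 3.28-fold higher in PFC. Also higher in PFC were the ephrin receptor Ephb6, which lacks kinase activity, at 53.1 and 29.1 against 190.1 to 266 CPM, the ligand Slit3 (3.81-fold) and the semaphorin Sema6b (3.02-fold). Receptors of 1 ligand thus lay on opposite sides of 0 in the case of netrin.

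In the Notch pathway, in which ligand-bound receptors keep progenitors undifferentiated, 13 of 28 tested genes were called higher in the embryo, 5 higher in PFC and 10 were not called. The receptor Notch2 was at 74 and 48.6 CPM in the embryo and 13.5 to 18.8 CPM in PFC (log2 difference -1.82 ± 0.21 SE, adjusted p = 3.09e-05), and the bHLH factor Hes6 at 189 and 84.7 against 23.8 to 53 CPM. Notch3, also a gene of vascular mural cells, was at 22.5 and 3.32 against 1.5 to 3.06 CPM, so that its F1r embryonic pool was close to the cortical pools, and it was not called without the F1i embryonic pool (adjusted p = 0.266). The pathway antagonists Numb and Numbl were higher in PFC by 2.72-fold and 2.7-fold, as were the target gene Hey1 (2.86-fold) and the gamma-secretase subunits Psenen (2.72-fold) and Psen2 (1.54-fold). The Psen2 call was lost without the F1r embryonic pool, the F1i female cortical pool, the F1i male cortical pool or the F1r male cortical pool (adjusted p = 0.0565 to 0.236) and in 6 other alternatives (adjusted p = 0.0583 to 0.312), library size alone among them. At the deepest SNP of each gene its difference changed sign, to -0.12.

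In the Wnt pathway, 14 of 31 tested genes were called higher in the embryo, 5 higher in PFC and 12 were not called. The ligand Wnt5a (3.39-fold), the receptor Fzd3 (2.52-fold) and the secreted inhibitor Sfrp1 (4.59-fold), with Tcf7l2, led toward the embryo. Sfrp1 was at 253 and 229 CPM there and 34.6 to 63.3 CPM in PFC. The Dickkopf family gene Dkk3 was at 29.4 and 50.6 CPM in the embryo and 626, 691, 761 and 662 CPM in PFC, 17.5-fold (log2 difference 4.13 ± 0.26 SE, adjusted p = 4.46e-07) higher in PFC. Rspo1 and Rspo2, secreted amplifiers of Wnt signals, the ligand Wnt4 and the kinase gene Gsk3a were also higher in PFC, by 6.21-fold, 5.08-fold, 4.82-fold and 1.99-fold. The Fzd3 call was lost without the F1r embryonic pool (adjusted p = 0.0732), and that of Gsk3a was lost without the F1i embryonic pool (adjusted p = 0.059) and with the female cortical pools only (log2 difference 0.78, adjusted p = 0.115). With all SNPs of each table Gsk3a was called in the other direction, at -0.99. The number of Wnt genes called higher in the embryo was 8 without the F1i embryonic pool. Apc, part of the complex that degrades beta-catenin, was not called (log2 difference -0.60 ± 0.25 SE, adjusted p = 0.0565).

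Synaptic genes moved the other way. Of 50 tested genes of synaptic vesicles and exocytosis, 36 were called higher in PFC, 4 higher in the embryo and 10 were not called, with a median log2 difference of 1.43. Snap25, a membrane fusion protein of the nerve terminal, was at 114 and 209 CPM in the embryo and 1592, 2184, 1583 and 1672 CPM in PFC, 11.3-fold (log2 difference 3.49 ± 0.24 SE, adjusted p = 7.10e-07) higher in PFC. Rph3a, a vesicle-associated effector of Rab3, was at 345 and 311 against 2658 to 3442 CPM, and the vesicle glycoprotein gene Sv2b at 41.2 and 55.8 against 691 to 1009 CPM. Its paralog Sv2c went against the group, at 35 and 36.5 CPM in the embryo and 6.88 to 9.84 CPM in PFC, as did Slc17a6, Syt2 and the active zone gene Erc1, by 12.1-fold, 2.44-fold and 2.46-fold. The Syt2 call was lost without the F1i embryonic pool or the F1i male cortical pool (adjusted p = 0.0521 to 0.271) and at the deepest SNP of each gene or with the female cortical pools only (adjusted p = 0.0519 to 0.0963). Pclo, which encodes the large active zone protein piccolo, was not called (log2 difference 0.78 ± 0.34 SE, adjusted p = 0.0757): its F1r female pool, at 205 CPM, was below both embryonic pools and the other cortical pools were above them.

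The postsynaptic density list was the most uniform of the neuronal lists: 29 of 32 tested genes were called higher in PFC and none higher in the embryo, with a median of 2.17. Homer3, Camk2d and Nlgn2 were the members not called. Besides Camk2a, Nrgn and Arc, Prkcc, a protein kinase C isoform of neurons, was at 25 and 19.1 CPM in the embryo and 897, 839.5, 736 and 849 CPM in PFC, 37.8-fold (log2 difference 5.24 ± 0.25 SE, adjusted p = 7.35e-08) higher in PFC. The summed level of the list was 2530 and 2575 CPM in the embryonic pools and 18136 to 20628 CPM in the cortical pools. The sums of the tissues were far apart, and Camk2a alone supplied 6032 to 7347 CPM of the cortical sums.

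Receptor genes were divided by subunit. Of 23 tested glutamate receptor genes, 10 were called higher in PFC, 2 higher in the embryo and 11 were not called. Grin1, the obligatory NMDA receptor subunit, was at 75 and 64.9 CPM in the embryo and 599, 492, 508 and 681 CPM in PFC, 8.15-fold (log2 difference 3.03 ± 0.23 SE, adjusted p = 1.39e-06) higher in PFC. The metabotropic receptor Grm2 and the AMPA receptor subunit Gria1 were higher in PFC by 7.1-fold and 3.05-fold, and the NMDA subunit Grin2d and the kainate subunit Grik1 were higher in the embryo by 4.41-fold and 2.87-fold. Grin2d was read at a single SNP. Of 13 tested GABA receptor genes, 9 were called higher in PFC, 1 higher in the embryo and 3 were not called. The alpha subunit Gabra4, the beta subunit Gabrb1 and the metabotropic subunit Gabbr2 were higher in PFC by 4.79-fold, 3.15-fold and 3.8-fold. The gamma subunit Gabrg1 was higher in the embryo (log2 difference -0.91 ± 0.33 SE, adjusted p = 0.0362), and that call was lost without the F1r embryonic pool, the F1i male cortical pool, the F1r female cortical pool or the F1r male cortical pool (adjusted p = 0.062 to 0.55) and in 4 other alternatives (adjusted p = 0.0567 to 0.0993). Gabrg3 was among the members not called.

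Of 66 tested ion channel genes, 39 were called higher in PFC, 7 higher in the embryo and 20 were not called, with a median of 1.16. Kcnj4, an inward rectifier potassium channel of forebrain neurons, was at 0.785 and 0.647 CPM in the embryo and 36.3, 38.2, 36.1 and 32.4 CPM in PFC, 48.9-fold (log2 difference 5.61 ± 0.32 SE, adjusted p = 2.24e-07) higher in PFC, at a single SNP. The auxiliary sodium channel subunit Scn2b was higher in PFC by 21-fold, and the potassium channel Kcnh3 by 26.3-fold. Hcn4, a slow pacemaker channel, was at 52.8 and 27.9 CPM in the embryo and 2.25 to 8.26 CPM in PFC, 6.9-fold higher in the embryo. Kcnip1, an accessory subunit of A-type potassium channels, and Cacna2d2, an accessory subunit of calcium channels, were also higher in the embryo, by 2.93-fold and 2.92-fold.

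Subunits that are known to follow each other in brain development were set side by side as 14 pairs of an early and a late gene. For the sodium channels, the embryonic isoform Scn3a was at 109 and 144 CPM in the embryo and 19.3 to 41.9 CPM in PFC, 3.91-fold higher in the embryo. Its late partner Scn1a was at 22.3 and 26.4 against 27.1 to 61.3 CPM (log2 difference 0.80 ± 0.30 SE, adjusted p = 0.0407), a call that was lost without the F1i embryonic pool, the F1r embryonic pool, the F1i female cortical pool, the F1i male cortical pool or the F1r male cortical pool (adjusted p = 0.0569 to 0.188) and in 6 other alternatives (adjusted p = 0.0506 to 0.301), library size alone among them. For chloride transport, on which the response to GABA depends, the importer Slc12a2 (NKCC1) was at 47.5 and 78.2 against 21.1 to 40.3 CPM (log2 difference -1.05 ± 0.20 SE, adjusted p = 0.00115), and the exporter Slc12a5 (KCC2) at 135 and 76.8 against 428 to 502 CPM (log2 difference 2.18 ± 0.24 SE, adjusted p = 1.75e-05). The pools of the tissues did not overlap for any of these 4 genes, as was so for 60.5% of all genes. The vesicular glutamate transporters gave the widest split: Slc17a6 was at 79.5 and 110.4 CPM in the embryo and 4.86, 8.69, 8.56 and 8.61 CPM in PFC, 12.1-fold (log2 difference -3.60 ± 0.23 SE, adjusted p = 4.54e-07) higher in the embryo, and Slc17a7 moved the other way.

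Not all pairs crossed. The NMDA subunit Grin2b was not called, at 77.4 and 53.2 against 58.6 to 147 CPM (log2 difference 0.57 ± 0.24 SE, adjusted p = 0.0632), and its late partner Grin2a was at 4.19 and 5.5 against 13.7 to 46.7 CPM, 6.62-fold higher in PFC. Of the GABA-A subunits in the pairs, the early Gabra2 (log2 difference 0.84 ± 0.19 SE, adjusted p = 0.00272) and the late Gabrb2 (log2 difference 1.13 ± 0.28 SE, adjusted p = 0.00547) were both higher in PFC. The Gabra2 call was lost with the female cortical pools only (log2 difference 0.78, adjusted p = 0.0574). The Gabrb2 call was lost without the F1i embryonic pool (adjusted p = 0.095). Camk2b and Camk2a were both higher in PFC, by 4.23-fold and 84.9-fold. In the BAF complex Actl6a was higher in the embryo by 2.19-fold and Smarcc1 by 2.01-fold. The Actl6a call was lost at the deepest SNP of each gene (log2 difference -0.42, adjusted p = 0.41). Their neuronal partners Actl6b (log2 difference 0.48 ± 0.31 SE, adjusted p = 0.214) and Smarcc2 (log2 difference -0.41 ± 0.17 SE, adjusted p = 0.0565) were not called. Aldoa and Aldoc, glycolytic aldolases, were both higher in PFC, by 9.65-fold and 5.74-fold. Dnmt3a was 2.13-fold higher in the embryo, and its partner Dnmt3b was listed there alone, with 100 and 107 reads. Nefl, the light neurofilament, was not called (log2 difference 0.22 ± 0.34 SE, adjusted p = 0.595), with embryonic pools at 33.7 and 128 CPM, and the heavy neurofilament Nefh was 2.54-fold higher in PFC.

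**Figure D3:**
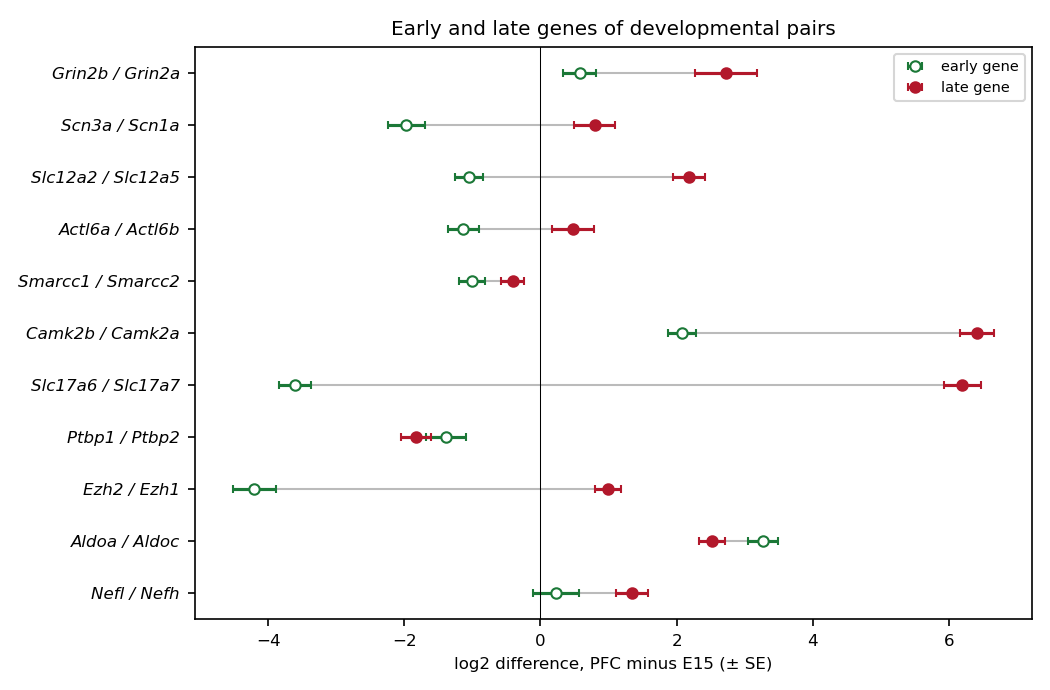
Log2 difference PFC minus E15 with its standard error for the early (open) and late (filled) gene of 11 of the developmental pairs; n = 2 embryonic and 4 prefrontal pools. The early gene lies left of the late gene in 9 pairs, and right of it in the pairs Ptbp1 with Ptbp2 and Aldoa with Aldoc.

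Genes of mature glia were higher in PFC. Of 23 tested oligodendrocyte genes, 18 were called higher in PFC, 1 higher in the embryo and 4 were not called, with a median of 1.72. The myelin genes Mag, which encodes myelin-associated glycoprotein, and Mal were at 1.22 and 1.46 and 1.22 and 0.89 CPM in the embryo and at 38.9, 18.3, 22.8 and 71.9 and 24.3, 24.7, 19 and 49.6 CPM in PFC. The F1r female pool was the highest of the cortical pools for both. The summed level of the list was 725 and 743 CPM in the embryonic pools and 2271 to 5603 CPM in the cortical pools, so the cortical pools differed among themselves in it by more than those of any other glial list. Mbp alone supplied 791 CPM of the lowest cortical sum, F1r male, and 2826 CPM of the highest, F1r female. Pdgfra, a growth factor receptor, was not called, at 82.4 and 121 against 73.5 to 93.1 CPM, nor were Olig2, Cspg4 and Nkx6-2. Edg2 (now Lpar1) was called higher in the embryo (log2 difference -0.85 ± 0.25 SE, adjusted p = 0.0123), a call lost without the F1i embryonic pool (adjusted p = 0.149) and at the deepest SNP of each gene or with the female cortical pools only (adjusted p = 0.0844 to 0.16). Mobp, a further myelin gene, had at least 1370 reads in each cortical pool and no SNP in the embryonic table.

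Of 37 tested astrocyte genes, 32 were called higher in PFC, 1 (Id3) higher in the embryo and 4 were not called, with a median of 1.90. The neurotensin receptor gene Ntsr2 was at 4.01 and 2.83 CPM in the embryo and 119.8, 94.7, 116 and 146 CPM in PFC, 34.9-fold (log2 difference 5.12 ± 0.30 SE, adjusted p = 2.56e-07) higher in PFC. Clu, the secreted chaperone clusterin, was at 23.6 and 30.1 against 468 to 667 CPM, the metallothionein gene Mt1 at 62.4 and 84.1 against 694 to 1506 CPM, and Gfap, the astrocyte filament, at 2.44 and 5.83 against 36.8 to 85.5 CPM. Gja1, Aldh1l1, Aqp4 and Slc4a4 were not called, among them Gja1, the gap junction gene connexin 43, at 156 and 171 against 169 to 180.0 CPM. The Id3 call was lost without the F1r embryonic pool (adjusted p = 0.213) and by DESeq2, with the female cortical pools only or with the male cortical pools only (adjusted p = 0.0751 to 0.094).

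Of 22 tested microglia genes, 20 were called higher in PFC, 1 (Sall1) higher in the embryo and 1 (Irf8) was not called, with a median of 1.84. Tmem119, a surface protein of mature microglia, was at 4.53 and 2.83 CPM in the embryo and 36.1, 24.9, 30.0 and 37.6 CPM in PFC, 8.82-fold (log2 difference 3.14 ± 0.31 SE, adjusted p = 8.56e-06) higher in PFC. The lysosomal gene Ctss was higher in PFC by 7.77-fold, and the selectin ligand Selplg by 20.5-fold. The pools of the tissues did not overlap for any of these 3, as was so for 60.5% of all genes. Sall1, a factor that neural progenitors share with microglia, was at 21.1 and 9.63 against 6.12 to 9.48 CPM, and its call was lost without the F1i embryonic pool, the F1i female cortical pool or the F1i male cortical pool (adjusted p = 0.053 to 0.462) and in 4 other alternatives (adjusted p = 0.0535 to 0.143).

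Vessels, blood and coverings of the brain gave another pattern. Of 28 tested endothelial and mural genes, 12 were called higher in the embryo, 5 higher in PFC and 11 were not called. The growth factor receptor Kdr, the adhesion molecule Cdh5 and the receptor kinase Tie1, all of endothelium, were higher in the embryo by 5.94-fold, 4.47-fold and 2.55-fold. The Tie1 call was lost without the F1i embryonic pool (adjusted p = 0.0917). Without that pool 6 genes of the list were called higher in the embryo. Ly6c1, Ly6a, Slco1a4, Plvap and the glucose transporter gene Slc2a1 were higher in PFC, by 14-fold, 18.5-fold, 7.6-fold, 3.74-fold and 2.05-fold. Of 20 tested genes of meninges and mesenchyme, 18 were called higher in the embryo and none higher in PFC, with a median of -2.50, and Sparc and Col6a1 were not called. The basement membrane gene Nid1 was at 60.1 and 56.8 against 2.14 to 4.35 CPM and the collagen gene Col1a1 at 37.4 and 26.9 against 2.06 to 3.56 CPM. Dcn, the proteoglycan decorin, was higher in the embryo by 9.18-fold and the collagen gene Col5a2 by 11-fold.

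The globin gene Hbb-b1, whose reads cannot be told from those of its near-identical neighbour, was at 789 and 1256 CPM in the embryo and 47.7, 69.6, 41.7 and 75.8 CPM in PFC, 17.5-fold (log2 difference -4.13 ± 0.17 SE, adjusted p = 3.95e-08) higher in the embryo. The other tested members of the erythroid list, Spnb1 (now Sptb) and Tfrc, which neurons also express, were called higher in PFC. The Tfrc call was lost without the F1i embryonic pool, the F1i female cortical pool, the F1i male cortical pool or the F1r male cortical pool (adjusted p = 0.0751 to 0.478) and in 7 other alternatives (adjusted p = 0.0642 to 0.207), library size alone among them. At the deepest SNP of each gene Spnb1 was not called and changed sign, to -0.34. Of 19 choroid plexus genes, 14 were listed in the embryonic table alone, as were 3987 genes beside the 17914 symbols of that table. Ttr, the secreted carrier transthyretin, had 21047 and 28556 reads in the embryonic pools. The 2 tested members were Enpp2, higher in PFC by 2.15-fold, and Msx1, higher in the embryo by 4.05-fold. Meningeal markers moved with tissue: the list summed to 1813 and 1988 CPM in the embryonic pools and to 685 to 824 CPM in the cortical pools. Their part in the other differences was not tested, nor was that of blood or choroid plexus.

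**Figure D4:**
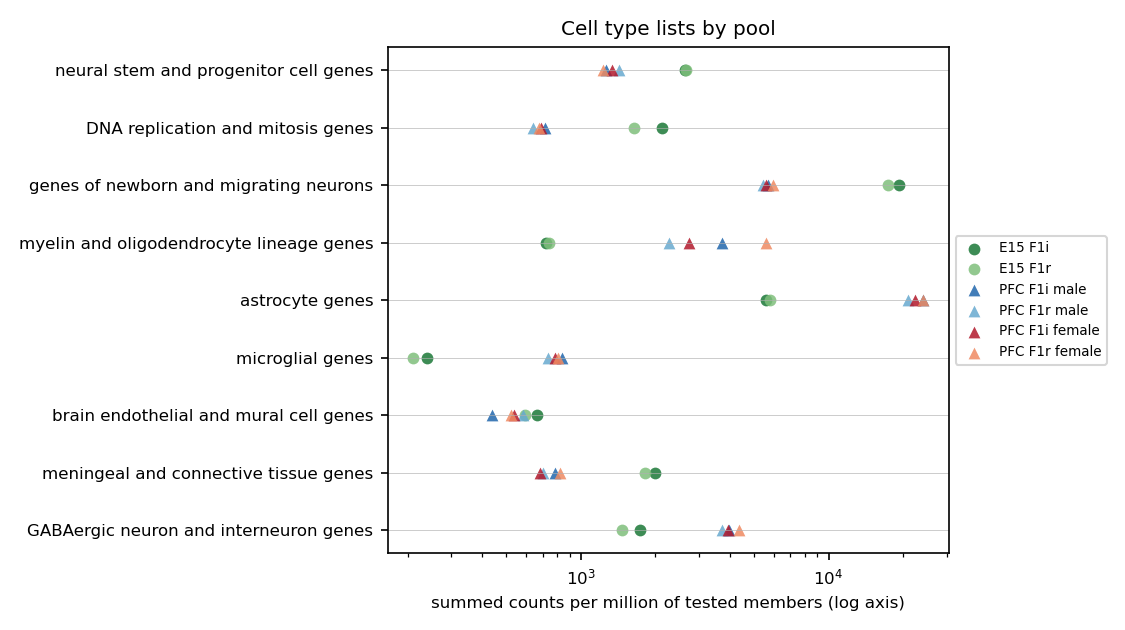
Summed CPM (log axis) of the tested members of 9 cell type lists in each of the 6 pools; circles are embryonic pools and triangles cortical pools. The oligodendrocyte list spreads from 2271 to 5603 CPM over the cortical pools, and the meningeal, progenitor, cell cycle and newborn neuron lists are higher in both embryonic pools than in any cortical pool.

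Genes of cortical excitatory neurons, a class that a whole brain holds in a smaller share than a cortex does, were called higher in PFC for 13 of 24 tested, higher in the embryo for 5 and not called for 6. Nptx1, a secreted pentraxin that clusters AMPA receptors, was at 13.1 and 18.8 CPM in the embryo and 199, 276, 213 and 279 CPM in PFC, 15.2-fold (log2 difference 3.93 ± 0.21 SE, adjusted p = 1.51e-07) higher in PFC. The members higher in the embryo were the transcription factor genes Foxp2, Cutl1 (now Cux1), Neurod6 and Tle4, by 7.58-fold, 2.36-fold, 1.99-fold and 1.58-fold, and Ntng1, by 2.73-fold. The Tle4 call was lost without the F1r embryonic pool, the F1i female cortical pool or the F1r male cortical pool (adjusted p = 0.058 to 0.263) and at the deepest SNP of each gene, with the female cortical pools only or with the male cortical pools only (adjusted p = 0.064 to 0.42).

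Interneuron genes were called in both directions. Of 22 tested, 6 were called higher in PFC, 8 higher in the embryo and 8 were not called, beside 26.4% and 27.5% of all genes called in these directions. Without the F1i embryonic pool 6 were called higher in PFC and 5 higher in the embryo. Pvalb, the calcium buffer parvalbumin of fast-spiking cells, was at 0.61 and 0.405 CPM in the embryo and 26.6, 19, 22 and 43.2 CPM in PFC, 52.9-fold (log2 difference 5.73 ± 0.49 SE, adjusted p = 3.41e-06) higher in PFC. The neuropeptide genes Cck and Sst were higher in PFC by 37.6-fold and 3.76-fold, and Calb1 by 3.56-fold. The homeobox genes Dlx1, Dlx2 and Prox1 of interneuron precursors were higher in the embryo by 3.07-fold, 2.92-fold and 4.41-fold, as was Calb2, calretinin, by 6.22-fold. The Dlx2 call was lost without the F1i embryonic pool (adjusted p = 0.186). Gad1 and Gad2, the enzymes that make GABA, were not called, at 161 and 294 against 250.5 to 288 CPM and 175 and 152 against 187 to 267 CPM.

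Genes of brain regions outside the cortex were seen mainly through what the PFC table does not list. Of 77 such genes, 59 had SNPs in the embryonic table and none in the PFC table. Over all genes 3987 were so listed, beside the 17914 symbols of the embryonic table. Among the 59 were 11 Hox genes of the hindbrain, the glycine transporter Slc6a5 (521 and 711 reads), the dopamine synthesis gene Th and the serotonin synthesis gene Tph2. The 5 tested members, Slc17a6, Zic1, Zic2, Tcf7l2 and Meis2, were all called higher in the embryo. The study's adult preoptic area, a hypothalamic region sampled in 4 pools at the same age as PFC, gives a second adult value, on CPM computed over the SNPs that all 3 tissues share. No test was made between them. Tcf7l2 was at 62 in embryonic brain, 1.38 in prefrontal cortex and 4.18 in preoptic area (pools from 3.46 to 5.38). Zic1 was at 27.7 in embryonic brain, 3.34 in prefrontal cortex and 29.1 in preoptic area (pools from 21.8 to 34), and Slc17a6 at 101 in embryonic brain, 8.03 in prefrontal cortex and 39.5 in preoptic area (pools from 29.4 to 52.1). Zic2 was at 8.68 in embryonic brain, 0.84 in prefrontal cortex and 1.75 in preoptic area (pools from 1.46 to 2.02). For Meis2, the means were 281 in embryonic brain, 114 in prefrontal cortex and 12 in preoptic area (pools from 9.66 to 14.9). Calb2 was at 71.8 in embryonic brain, 11 in prefrontal cortex and 98 in preoptic area (pools from 87.2 to 106). Of genes named earlier, AW551984 was at 235 in embryonic brain, 7.63 in prefrontal cortex and 154 in preoptic area (pools from 138 to 170). Sv2c was at 38.2 in embryonic brain, 8.09 in prefrontal cortex and 79.2 in preoptic area (pools from 63.5 to 89.9). The genes compared in this way are a selection. The adult preoptic area thus reached or passed the embryonic mean for Zic1, Calb2 and Sv2c. It lay between the embryo and PFC for Slc17a6, Tcf7l2, Zic2 and AW551984, and below both for Meis2.

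The same values stand beside 4 genes that were high in PFC. Slc17a7 was at 12.2 in embryonic brain, 737 in prefrontal cortex and 1.52 in preoptic area (pools from 1.03 to 2.02), and Camk2a at 86 in embryonic brain, 7139.8 in prefrontal cortex and 847 in preoptic area (pools from 784 to 932). Mbp was at 23.2 in embryonic brain, 1662 in prefrontal cortex and 3941 in preoptic area (pools from 3646 to 4153). Arc was at 3.75 in embryonic brain, 219.7 in prefrontal cortex and 15.8 in preoptic area (pools from 11.4 to 19.9). Of these, Mbp was higher in both adult tissues than in the embryo, and Slc17a7 was high in PFC alone. Camk2a and Arc lay between the embryo and PFC in the preoptic area.

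Immediate early genes, which neurons and glia transcribe within minutes of stimulation, were higher in PFC for 16 of 21 tested, higher in the embryo for 1 (Snf1lk, now Sik1) and not called for 4, with a median of 1.76. Egr1 was at 14 and 6.07 CPM in the embryo and 472, 385, 451 and 445 CPM in PFC, 45.8-fold (log2 difference 5.52 ± 0.30 SE, adjusted p = 1.81e-07) higher in PFC. Junb was at 1.48 and 0.405 against 30.4 to 60.1 CPM, a call lost with all SNPs of each table (log2 difference 0.35, adjusted p = 0.276). The Snf1lk call was lost without the F1i embryonic pool (adjusted p = 0.0551). Egr3 and Arc were described above, and Jund1 (now Jund), Ier2, Btg2 and Klf4 were the members not called. Fosb, Egr2, Egr4 and Dusp5 were listed in the PFC table alone, Fosb with at least 98 reads in each pool. How the animals were handled before dissection is not given in the sources used here.

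Imprinted genes, which in at least some tissue or transcript are expressed mainly from 1 parental allele, were the study's subject. Whether each listed gene was so expressed in these tissues was not examined here. Their totals over both alleles showed no common direction. Of 44 tested, 14 were called higher in PFC, 17 higher in the embryo and 13 were not called, with a median of -0.14. Over all genes, 26.4% and 27.5% were called in these directions. A difference of at least 2-fold was called for 11 toward PFC and 13 toward the embryo, beside 17.9% and 17.5% of all genes. With CAST reads only, 13 imprinted genes were called higher in PFC and 10 higher in the embryo. Reads were not separated by strand in the sources used here, so genes that overlap another transcript are uncertain.

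Several imprinted genes were higher in the embryo. After Igf2, the cell cycle inhibitor Cdkn1c was at 7.41 and 23.1 CPM in the embryo and 0.231, 1.14, 0.306 and 0.749 CPM in PFC, 24.8-fold (log2 difference -4.63 ± 0.36 SE, adjusted p = 1.76e-06) higher in the embryo, at a single SNP. Peg10, a gene derived from a retrotransposon, was at 138 and 107 against 11.8 to 17.2 CPM, and the zinc finger genes Zim1 and Plagl1 were higher in the embryo by 26.7-fold and 3.49-fold. The signalling adaptor Grb10, the hydrolase-like gene Mest, Usp29 and Inpp5f were higher there by 3.06-fold, 2.98-fold, 3.69-fold and 6.76-fold. The Mest call was lost with CAST reads only (log2 difference -0.79, adjusted p = 0.0633). Hm13, Nap1l4 and Blcap were higher by 3.62-fold, 2.16-fold and 2.01-fold, the last of them not called without the F1r embryonic pool (adjusted p = 0.217) and with B6 reads only, with CAST reads only or with the female cortical pools only (adjusted p = 0.0591 to 0.284). Mkrn3 was uneven, at 38.9 and 4.29 CPM in the embryonic pools and 0.306 to 1.12 CPM in PFC, at a single SNP. H19, the noncoding neighbour of Igf2, had 2823 and 4349 reads in the embryonic pools and no SNP in the PFC table, and Dlk1 had 707 and 335.

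The imprinted gene with the largest difference toward PFC was Rasgrf1, an exchange factor for Ras in neurons (chr9:89804613-89921814 in mm9). It was at 12.6 and 12 CPM in the embryo and 448, 601, 442 and 574 CPM in PFC, 41.4-fold (log2 difference 5.37 ± 0.24 SE, adjusted p = 5.90e-08) higher in PFC. Impact, a translational regulator of neurons, was at 35.8 and 34.3 against 172 to 302 CPM, and Begain, a protein of the postsynaptic density, at 39.4 and 34.7 against 159 to 257 CPM. Snrpn and Snurf, read from 1 shared transcript, were both 2.21-fold and 2.27-fold higher in PFC and count as 1 measurement. Herc3 and Nap1l5, which lies in an intron of Herc3, were higher by 5.12-fold and 3.28-fold. The tetraspanin gene Cd81, Zrsr1, the deiodinase gene Dio3 and the serotonin receptor Htr2a were higher by 2.75-fold, 2.67-fold, 2.95-fold and 3.94-fold. The Dio3 call was lost without the F1i embryonic pool (adjusted p = 0.176). The Htr2a call was lost at the deepest SNP of each gene (log2 difference 1.14, adjusted p = 0.155). Peg3 (log2 difference -0.26 ± 0.22 SE, adjusted p = 0.346) and Gnas (log2 difference 0.85 ± 0.37 SE, adjusted p = 0.0751) were not called, Gnas with embryonic pools at 555 and 141 CPM.

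**Figure D5:**
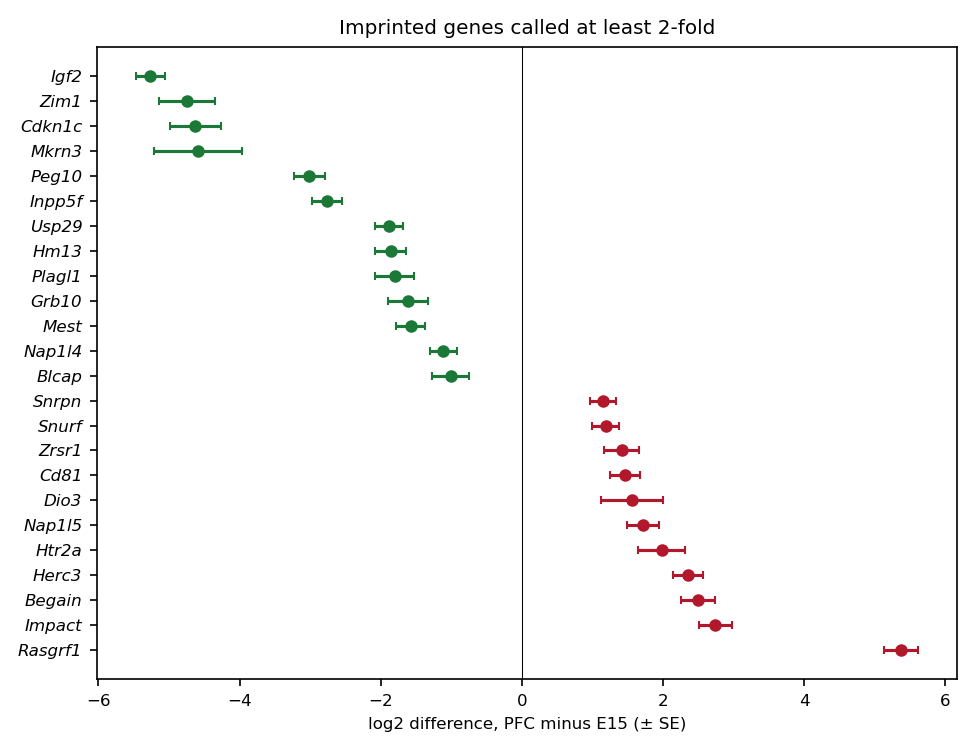
Log2 difference PFC minus E15 with its standard error of the 24 imprinted genes called at least 2-fold; n = 2 embryonic and 4 prefrontal pools. Of the 13 genes left of 0, Igf2, Zim1, Cdkn1c and Mkrn3 lie farthest out, and Rasgrf1 is the farthest of the 11 genes right of 0.

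Genes of basic cell functions also differed. Of 47 tested ribosomal protein genes, many of which have pseudogene copies, 28 were called higher in the embryo, none higher in PFC and 19 were not called, with a median of -0.68. Rpl7 was at 382 and 544 CPM in the embryo and 143, 75.7, 113 and 141 CPM in PFC, 3.92-fold (log2 difference -1.97 ± 0.25 SE, adjusted p = 6.07e-05) higher in the embryo, and Rpl5 and Rps27l were higher by 3.14-fold and 2.98-fold. Rps20 was at 1713 and 351 CPM in the embryo against 194 to 349.8 CPM, and was not called without the F1i embryonic pool (adjusted p = 0.174). Of 55 tested nuclear genes of the respiratory chain, 30 were called higher in PFC, none higher in the embryo and 25 were not called, with a median of 0.71. Cox8a, a subunit of cytochrome c oxidase, was at 175 and 389 CPM in the embryo and 2255, 1116, 1353 and 1854 CPM in PFC, 6.02-fold (log2 difference 2.59 ± 0.38 SE, adjusted p = 1.55e-04) higher in PFC, at a single SNP. Cox7c of the same complex, Ndufs7 of complex I and Atp5d of the ATP synthase were higher by 3.28-fold, 3.16-fold and 2.85-fold. Reads on SNPs of the mitochondrial genome made up 19% and 20.8% of all reads in the embryonic pools and 25.3% to 31.7% in the cortical pools. In the pools of adult preoptic area, the study's other adult region, the share was 9.96% to 14.3%, below both embryonic pools.

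The zinc finger genes named Zfp, most of them of unknown function, leaned toward the embryo: 110 of 213 tested were called higher there, 12 higher in PFC and 91 were not called, with a median of -0.73. Zfp811 was at 124 and 99.1 CPM in the embryo and 7.11 to 16 CPM in PFC, and Zfp521, Zfp81 and Zfp41 were higher in the embryo by 8.57-fold, 6.09-fold and 7.46-fold. Zfp365 was the largest exception, at 9.51 and 10.8 CPM in the embryo and 430.3, 463, 422 and 289 CPM in PFC, 39.4-fold (log2 difference 5.30 ± 0.29 SE, adjusted p = 1.65e-07) higher in PFC. Zfp652, Zfp179 and Zfp533 (now Zfp385b) were higher in PFC by 8.15-fold, 3.99-fold and 2.87-fold. The Zfp533 call was lost at the deepest SNP of each gene (log2 difference 0.96, adjusted p = 0.105).

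The lists rest on SNPs that both tables hold, and a SNP is listed in a tissue only where every pool has at least 1 read. In the embryonic table alone 3987 genes were listed, 392 of them with at least 100 reads in each pool, and in the PFC table alone 327, of which 5 had that many. Among the former with most reads were Ttr, Igfbpl1, St8sia2, which makes polysialic acid on neural cell adhesion molecules, H19 and Mki67. They also included Gnb1 and Gnb2l1 and the ribosomal protein genes Rpl29, Rpl26 and Rpl38, which nearly all cells express. A gene that is not listed in PFC is therefore not shown to be silent there. Listing in PFC takes a read in each of 4 pools, and listing in the embryo in each of 2. Reads over all SNPs listed once were 25252900 and 26721324 in the embryonic pools and 11773966 to 18091957 in the cortical pools. The part of depth and pool number in the counts of genes listed in 1 tissue was not tested. The 5 genes of the PFC table alone were Mobp, Rgs14, 5730557B15Rik (now Ankrd33b), AK043581 and AK132687.

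Whether the difference between tissues depended on the direction of the cross was asked with an interaction term. No gene of 12076 passed an adjusted p of 0.05, with 1208 at an unadjusted p under 0.05 and a smallest adjusted p of 0.0918, for Rps29. If no gene differed, a share of 0.05 of them would fall under that unadjusted p, and 1208 of 12076 is a larger share. With 2 residual degrees of freedom the test has little power, and genes such as Fabp7, Mkrn3 and Rps20, whose embryonic pools differed several-fold, were not called.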

How the data were processed

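Poly(A) RNA was fragmented to about 200 bp, primed with random hexamers and sequenced for 36 cycles from RNA with a RIN above 9, per the labels' protocols. The submitters' processing notes name Novoalign and the mm9 genome, without versions. The deposited values are read counts of each parental allele at strain SNPs, with technical replicates summed by the authors, per the labels.

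Positions listed more than once in a table (2073 in E15, 911 in PFC) were left out, since their entries hold different reads. Both alleles were summed over the 199233 SNPs that both tables list, 194375 of them autosomal, and the transcript with most reads stood for each symbol (107155 SNPs). Neighbouring SNPs can count 1 read more than once. Genes kept by filterByExpr were TMM scaled and tested with edgeR 4.0.16 (R 4.3.3), with cross as covariate. Python 3.11.15 and matplotlib 3.10.9 made the summaries and plots. The fit was also run on simulated counts in which only a few genes differed. That run does not test the scaling in these data, where 53.9% of genes were called. Positions are GENCODE vM1 (mm9), matched for 9156 of 12076 genes, and promoters are RefSeq GRCm38.p6.

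The genes named include the 12 largest differences each way among called genes with non-overlapping pools and a mean of at least 100 reads per pool. For each list, up to 4 called each way with at least 50 reads and up to 2 not called were named. Further ones are imprinted genes called at least 2-fold, 14 pairs, and the 10 genes with most reads listed in 1 tissue. Members of counts of 5 or fewer were also named, chosen after their values were seen: Aldh1l1, Aqp4, Ccne1, Cspg4, Gabrg3, Gsk3a, Hes5, Homer3, Id3, Ier2, Irf8, Klf4, Ly6a, Msx1, Nkx6-2, Psen2, Rps29, Slco1a4, Smarcd1, Sox1, Syt2, Tle4 and Zic2. Some genes that this rule picks are not reported here. The members and lists were chosen with earlier results of these data known. Alternatives were other scalings, DESeq2 1.42.0, other filters on low counts, no cross covariate, other SNP and transcript choices, 1 allele, 1 sex of PFC, added parental samples and each pool left out.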

Additional observations from a re-analysis of the deposited data

Results flagged for a closer look

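Among the 244 genes named in the report, 14 had 1 cortical pool far from the other 3, by Dixon's ratio of the gap to the whole range with a critical value of 0.829. Chance alone flags about 1 in 20 groups of values, so the number of such genes is near what chance gives. The pool that stood apart was F1i male for 4 genes, F1r male for 3, F1i female for 4 and F1r female for 3.

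The F1r male pool was the highest for Snap25, at 2184 CPM beside 1583 to 1672 in the other cortical pools, for Pdgfra, at 93.1 beside 73.5 to 75.2, and for Sv2c, at 9.84 beside 6.88 to 7.3. The F1i male pool was the lowest for Snrpn, at 442 CPM beside 556 to 562, and for Snurf, at 441 beside 552 to 560, which share their reads. It was also the lowest for Slc17a6, at 4.86 beside 8.56 to 8.69, and for Ly6a, at 6.71 beside 9.15 to 9.33.

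Among the female pools, F1i stood below the others for Ctss, at 36.1 CPM beside 44.7 to 45.1, and for Itpka, at 85.9 beside 106 to 109. It stood above them for Gabrb1, at 42.7 beside 25.1 to 25.7, and for Kcnh3, at 138 beside 112 to 116. The F1r female pool was the highest for Calb2, at 12.2 CPM beside 9.79 to 10.1, and the lowest for Smarca2, at 400.0 beside 526 to 540.0, and for Usp29, at 53.5 beside 82.3 to 87.9.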

How the results depend on the processing

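Of the 205 named genes that were called, 172 kept direction and call in each of the 23 alternatives in which they were tested, and over 4691 pairs of such a gene and an alternative 117 lost the call and 3 changed sign (Gsk3a, Psen2 and Spnb1). All SNPs of each table, which adds SNPs listed in only 1 tissue, gave 9807 genes called, 5707 of them higher in the embryo, and 7336 at least 2-fold. Library size alone gave 4977 called higher in the embryo. Leaving out each pool in turn gave 4983 to 6718 genes called, 2545 to 3350 of them higher in PFC and 2438 to 3368 higher in the embryo, 4031 to 4358 at least 2-fold, and the same direction of most calls in 27 to 29 of 29 gene lists. At a minimum of 20 reads in each pool, 1443 genes were listed in the embryonic table alone and 50 in the PFC table alone. With 1 embryonic pool left out, the other is assumed to vary as the cortical pools do. Summing repeated listings was an alternative chosen after seeing the data. No paired analysis was possible because the embryonic and cortical pools hold RNA of different animals. The deposited columns are sums of technical replicates and carry no replicate number.

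Sign changes were otherwise those of genes that were not called. Log2 differences with B6 reads only were Gja1 -0.061, Klf4 -0.28 and Peg3 0.045. Log2 differences with CAST reads only were Cspg4 -0.018, Hmgn3 0.15 and Irf8 -0.034. Log2 differences with all SNPs of each table were Gsk3a -0.99, Hmgn3 0.043, Nkx6-2 -0.85, Olig2 0.20 and Rps29 0.019. Log2 differences at the deepest SNP of each gene were Ccnd1 -0.049, Gja1 -0.034, Klf4 -0.93, Nlgn2 -0.13, Peg3 0.61, Psen2 -0.12 and Spnb1 -0.34. Log2 differences with the female cortical pools only were Emx2 0.016 and Rps29 0.21. Log2 differences with library size alone were Ccnd1 -0.10, Gad1 -0.075, Gja1 -0.27, Hes5 -0.077, Hmga1 -0.19, Jund1 -0.22, Klf4 -0.35, Nefl -0.15 and Nlgn2 -0.16. Log2 differences with the male cortical pools only were Klf4 -0.21 and Rps29 0.13. Log2 differences without the cross covariate were Klf4 -0.019. Log2 differences with the parental embryonic samples added were Hes5 -0.057, Hmga1 -0.063 and Nlgn2 -0.026. Log2 differences with upper quartile scaling were Gja1 -0.0071 and Klf4 -0.091. Over the left-out pools, the log2 differences of genes that changed sign ranged as follows: Actl6b -0.030 to 1.08, Ccnd1 -0.086 to 0.67, Emx2 -0.94 to 0.47, Gad1 -0.10 to 0.76, Hes5 -0.47 to 1.87, Hmga1 -0.055 to 0.46, Hmgn3 -0.18 to 0.027, Klf4 -0.40 to 0.50, Nefl -0.58 to 1.27, Nlgn2 -0.012 to 0.47 and Rps29 -1.45 to 2.00. The cause of these changes was not tested. Depth limits the genes with few reads per pool, and 2 embryonic pools limit all of them.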
